A study of Mus musculus with 6 samples.

Results

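The genes described are 10 cytokine genes, Ifng, Tnf, Il1b, Il6, Il10, Il12a, Lta, Ltb, Tgfb1 and Csf1, out of 17097 genes measured. They were taken by name from the platform annotation, through 13 probe sets that name 1 of these genes and no other. Where a gene had several probe sets, as only Csf1 did with 4, its main value is that of the probe set with the highest mean over all arrays. The values come from mouse pro-B cells, early precursors of the B lineage, sorted as B220+CD43+IgM- cells and hybridised to Affymetrix perfect-match arrays. The arrays hold 3 samples of wild type cells and 3 of cells labelled HDAC7 deficient, from mice with a conditional Hdac7 allele. The sources used here do not give the Cre driver, the age or sex of the mice, or whether an array holds 1 mouse or a pool. HDAC7 is a class IIa histone deacetylase that acts as a transcriptional corepressor, and the comparison addresses what its loss does to expression in B cell precursors.

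Cytokines are secreted or membrane-bound signals between cells of the immune system. Interferon gamma (Ifng) is made chiefly by natural killer and T cells and activates macrophages. Tumor necrosis factor (Tnf) and the lymphotoxins (Lta and Ltb) belong to 1 ligand family, signal through NF-kB and are encoded next to each other on chromosome 17; lymphotoxin alpha and beta chains assemble into a membrane heterotrimer that lymphocytes use to shape lymphoid tissue. Interleukin 1 beta and interleukin 6 are made by stimulated myeloid cells, interleukin 10 dampens such responses, and Il12a encodes the p35 chain that pairs with p40 in interleukin 12, an inducer of interferon gamma. Transforming growth factor beta 1 restrains lymphocyte growth, and colony-stimulating factor 1 sustains macrophages.

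Values are log2 expression, on which equal steps are equal ratios. Replicate 3 of the wild type differed from the rest: its correlations with them over 45037 probe sets ran from 0.70 to 0.82, against 0.94 to 0.99 among the rest, and its Actb probe sets read 1.69 more at the 3' end than mid-transcript (0.16 to 0.26 on the rest). Its Gapdh probe sets stood out little, with 0.10 more at the 3' than at the 5' end (-0.10 to 0.07 on the rest). The change of each cytokine gene is therefore given with and without wild-type replicate 3. Xist, the RNA of the inactive X chromosome, split the arrays into 3 high and 3 low ones (4.87 to 5.38 on the low ones). The high ones were HDAC7-deficient replicates 2 and 3 (11.40 and 11.27) and wild-type replicate 3 (8.51). Wild-type replicate 3 thus lay between the low arrays and the HDAC7-deficient high ones, so the arrays called Xist-high were not alike in Xist. Spike-in controls split the same way, with means of 9.77 to 10.60 and 8.43 to 8.93, so what Xist marks and the hybridisation cannot be told apart. Hdac7 read 9.06, 9.48 and 7.31 in wild type and 9.95, 9.54 and 9.27 on the arrays labelled HDAC7 deficient, so its probe set was not lower there. Without knowing which exons were deleted this does not check the labels, and each direction given is that of the labels.

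Of the 10 genes, Ifng, Tnf and Ltb stood highest on the same 2 HDAC7-deficient arrays, replicates 2 and 3. For Ifng and Tnf replicate 1 lay at or near the wild-type level, and for Ltb it was close to replicate 3 (5.52 against 5.58). Il12a was highest on HDAC7-deficient replicate 1, Lta was slightly lower on all 3 HDAC7-deficient arrays, and Il6 and Il10 were at the level of nonspecific control probes. With all 6 arrays the change was largest for Ifng, 1.55 ± 0.51 (SE), a 2.92-fold difference with a 95% interval of 1.27-fold to 6.71-fold. Tgfb1 had the larger change without wild-type replicate 1 (1.46 against 1.43), without wild-type replicate 2 (1.72 against 1.60) and with the Xist division as a block (1.52 against 1.22). On the 3 Xist-low arrays, Ifng and Tnf were not above all 23 nonspecific control probe sets, so folds of these genes are against values near background. None of the 10 passed an adjusted p of 0.05 in limma, where 0 of 17097 genes passed (0% of all genes). At an unadjusted p under 0.05 limma had 2 of the 10 higher, Ifng and Ltb, against 3.52% of all genes, and 0 of the 10 lower, against 9.14%. RNA was measured in bulk, so more cells of a type and more RNA per cell cannot be told apart.

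**Figure D1:**
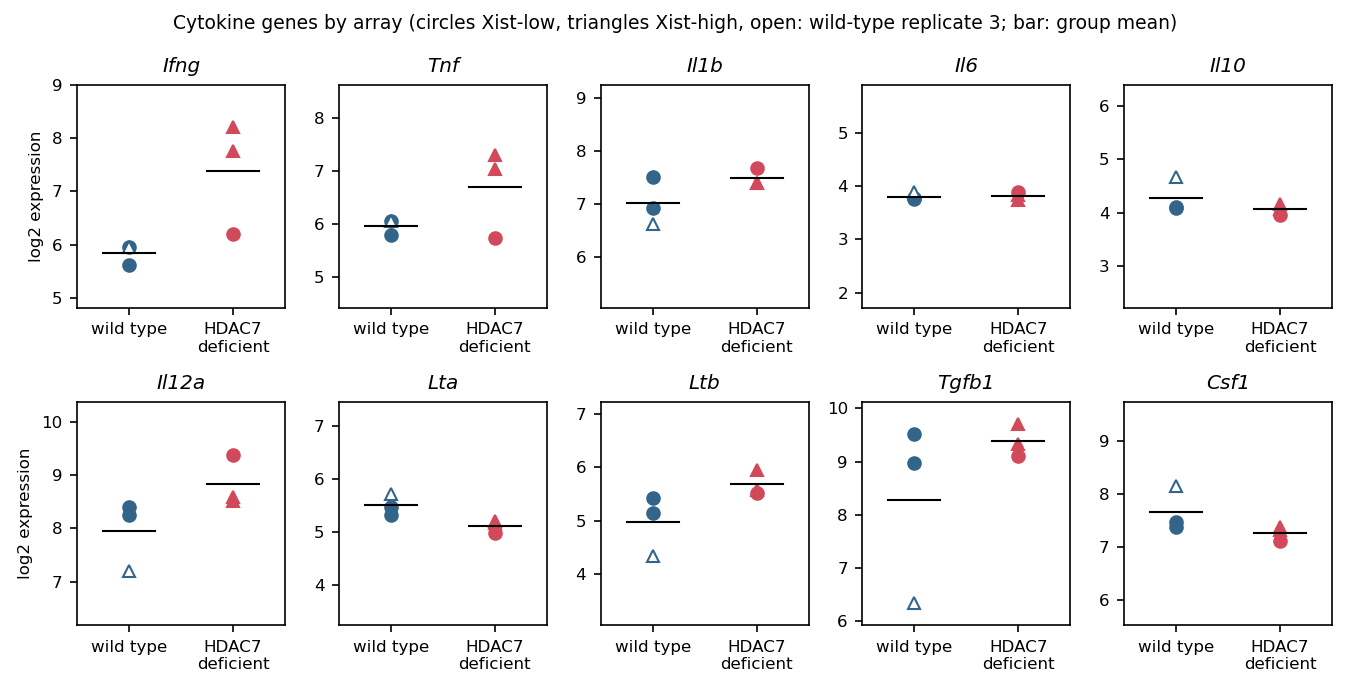
Log2 expression of each cytokine gene (vertical axes, the same span in every panel) on the 3 wild type and 3 HDAC7-deficient arrays, with circles for Xist-low and triangles for Xist-high arrays, an open symbol for wild-type replicate 3 and bars for group means. Ifng and Tnf are high on the 2 Xist-high HDAC7-deficient arrays, and wild-type replicate 3 lies far below the others for Tgfb1.

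Ifng read 5.62, 5.95 and 5.96 on wild-type replicates 1, 2 and 3, and 6.20, 8.21 and 7.76 on HDAC7-deficient replicates 1, 2 and 3. All 3 HDAC7-deficient arrays lay above all 3 wild-type arrays, replicate 1 by only 0.24. The group means were 5.84 ± 0.20 and 7.39 ± 1.05 (SD, n = 3 each), with a limma adjusted p of 0.377. Without wild-type replicate 3 the change was 1.61 ± 0.52 and the limma adjusted p 0.276, so the difference was as large without that array. Within the Xist-low arrays the difference was 0.42, and within the Xist-high arrays 2.02, where wild type is represented by replicate 3 alone.

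Tnf read 5.80, 6.05 and 6.06 in wild type, and 5.75, 7.31 and 7.04 on the HDAC7-deficient arrays. Replicates 2 and 3 lay above every wild-type array and replicate 1 below all of them, so the groups overlapped. The means were 5.97 ± 0.15 and 6.70 ± 0.84 (SD, n = 3 each), which differ by 0.73 ± 0.41 (limma adjusted p = 0.387), and by 0.78 ± 0.43 without wild-type replicate 3 (limma adjusted p = 0.438). The difference was -0.18 within the Xist-low and 1.12 within the Xist-high arrays. It thus had opposite signs on the 2 sides of the division, and the difference between the sides was not tested.

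The neighbours of Tnf on chromosome 17 did not share its pattern in full. Ltb read 5.15, 5.42 and 4.33 in wild type and 5.52, 5.94 and 5.58 on the HDAC7-deficient arrays, with no overlap between the groups. Its change was 0.72 ± 0.30 (limma adjusted p = 0.377), or 0.40 ± 0.19 without wild-type replicate 3, the array on which it was lowest (limma adjusted p = 0.395), and 0.23 and 1.44 within the Xist-low and Xist-high arrays. Lta read 5.48, 5.33 and 5.71 in wild type and 4.99, 5.20 and 5.17 on the HDAC7-deficient arrays, again without overlap but in the other direction. Its change was -0.39 ± 0.17 (limma adjusted p = 0.377), or -0.28 ± 0.15 without wild-type replicate 3 (limma adjusted p = 0.427), with -0.42 and -0.53 within the Xist-low and Xist-high arrays, and -0.14 after quantile normalization. For both lymphotoxin genes the values lay within the range of the nonspecific control probe sets on most arrays, so these are small differences near background.

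The stretches before the start sites of these 4 genes are shown because Ifng, Tnf and Ltb are the genes of the 10 that were highest on HDAC7-deficient replicates 2 and 3, and Lta is the neighbour that was lower. They are the 250 bases upstream of the RefSeq start in GRCm38.p6, written 5′ to 3′ on the gene's strand, with matches to the searched motifs in capitals: chr10:118440796-118441045 (+) for Ifng, chr17:35202008-35202257 (-) for Tnf, chr17:35194257-35194506 (+) for Ltb and chr17:35205352-35205601 (-) for Lta.
Ifng: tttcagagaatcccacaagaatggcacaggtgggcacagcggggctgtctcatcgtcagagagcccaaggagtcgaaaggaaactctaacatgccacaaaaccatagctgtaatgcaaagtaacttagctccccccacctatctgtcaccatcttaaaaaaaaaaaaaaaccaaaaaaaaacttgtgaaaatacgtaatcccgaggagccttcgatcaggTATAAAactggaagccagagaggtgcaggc
Tnf: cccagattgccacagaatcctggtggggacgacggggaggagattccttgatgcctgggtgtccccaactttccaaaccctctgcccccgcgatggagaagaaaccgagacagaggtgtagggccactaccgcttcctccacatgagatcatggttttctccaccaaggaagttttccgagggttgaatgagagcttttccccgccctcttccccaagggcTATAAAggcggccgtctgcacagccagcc
Ltb: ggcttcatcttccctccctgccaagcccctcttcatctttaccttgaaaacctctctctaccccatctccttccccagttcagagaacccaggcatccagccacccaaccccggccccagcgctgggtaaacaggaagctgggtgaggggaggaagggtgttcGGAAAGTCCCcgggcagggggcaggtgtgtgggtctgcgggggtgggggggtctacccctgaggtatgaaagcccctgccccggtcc
Lta: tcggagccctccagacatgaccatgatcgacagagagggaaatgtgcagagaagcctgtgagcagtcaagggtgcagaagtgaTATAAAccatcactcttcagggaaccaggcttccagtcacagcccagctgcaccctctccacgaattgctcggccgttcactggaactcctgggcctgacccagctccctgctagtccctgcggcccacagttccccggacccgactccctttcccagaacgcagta
The motifs searched on both strands were TATAAA (the core of a TATA box), TGANTCA (bound by AP-1), TGACGTCA (bound by CREB and ATF factors), the kappa B motif of NF-kB and the MEF2 motif; the last is of interest because HDAC7 is recruited by MEF2 factors. Ifng and Tnf each had TATAAA close to the start, at -30 to -25 and -29 to -24, and Il1b had it at -31 to -26. Lta had it farther away, at -167 to -162. TATAAA was in 4 of the 9 genes with a listed promoter, against 12.37% of 32851 promoters. The kappa B motif was in 4 of the 9, Ltb (-87 to -78, on the reverse strand), Csf1, Il6 and Tgfb1, against 7.25% of promoters. TGANTCA was in Il6 alone, against 6.75% of promoters, and neither TGACGTCA (1.55%) nor the MEF2 motif (2.92%) was in any of the 9. A match describes the letters of these windows, and Il10 had no listed promoter.

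**Figure D2:**
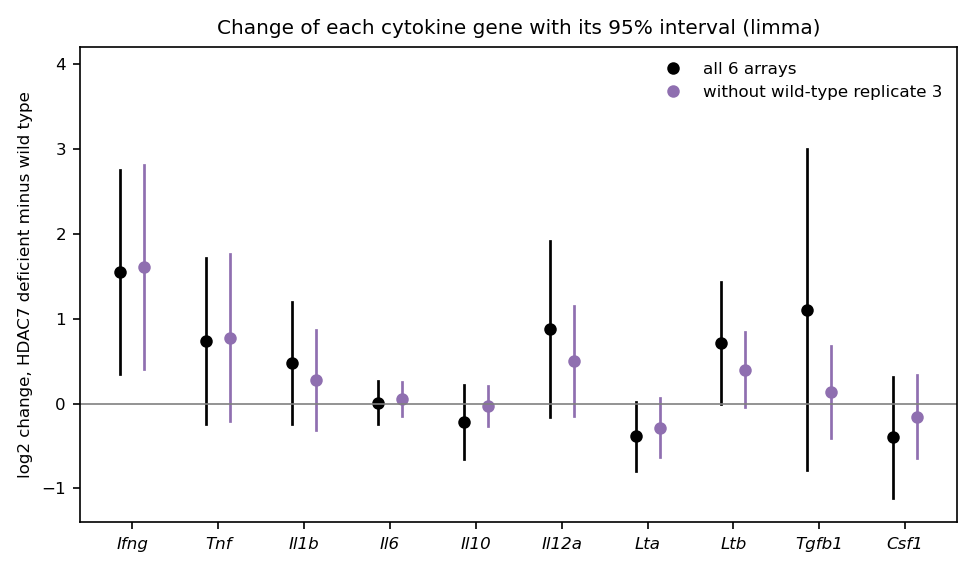
Log2 change of each cytokine gene, HDAC7 deficient minus wild type (vertical axis), with its 95% limma interval, from all 6 arrays (black) and without wild-type replicate 3 (purple). The interval of Ifng lies above 0 in both fits, and that of Tgfb1 is much narrower, from -0.41 to 0.68, without wild-type replicate 3.

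Among the myeloid cytokines, Il12a showed the clearest separation. It read 8.25, 8.40 and 7.19 in wild type and 9.37, 8.60 and 8.52 on the HDAC7-deficient arrays, which lay above all wild-type arrays. Unlike Ifng, it was highest on HDAC7-deficient replicate 1, and replicates 2 and 3 exceeded wild-type replicate 2 by little. The change was 0.88 ± 0.44 (limma adjusted p = 0.378), or 0.50 ± 0.28 without wild-type replicate 3 (limma adjusted p = 0.447), and it was 1.05 and 1.37 within the Xist-low and Xist-high arrays. Il1b read 6.92, 7.50 and 6.62 in wild type and 7.68, 7.40 and 7.40 on the HDAC7-deficient arrays, with overlap through wild-type replicate 2. Its change was 0.48 ± 0.30 (limma adjusted p = 0.404), or 0.28 ± 0.26 without wild-type replicate 3, with an interval of -0.31 to 0.87, and 0.47 and 0.78 within the Xist-low and Xist-high arrays.

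Il6 and Il10 read at the level of nonspecific probe sets on nearly every array. Il6 read between 3.74 and 3.89 on all 6 arrays, where the median of 23 nonspecific control probe sets lay between 3.70 and 3.99. Its change was 0.01 ± 0.11, with a 95% interval of -0.24 to 0.27, or 0.05 without wild-type replicate 3. Il10 read 4.10, 4.08 and 4.66 in wild type and 3.96, 4.07 and 4.17 on the HDAC7-deficient arrays, and only wild-type replicate 3 stood out. Its change of -0.22 was -0.03 without that array, with an interval of -0.26 to 0.21. The GC content of the probes of these genes is not known here, and single nonspecific probe sets read up to 6.81, so the comparison with them is approximate.

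Tgfb1, Csf1, Il1b and Il12a were above all 23 nonspecific probe sets on every array. Tgfb1 read 8.98, 9.52 and 6.35 in wild type and 9.11, 9.70 and 9.34 on the HDAC7-deficient arrays. Wild-type replicate 3 was far below every other array, and the remaining arrays overlapped. The change of 1.10 ± 0.80 (limma adjusted p = 0.432) was 0.14 ± 0.24 without it (limma adjusted p = 0.818), with an interval of -0.41 to 0.68, so the difference rests on that 1 array. Csf1 read 7.46, 7.37 and 8.15 in wild type and 7.11, 7.31 and 7.37 on the HDAC7-deficient arrays, where the highest HDAC7-deficient and the lowest wild-type value are equal to 2 decimals. Its change was -0.40 ± 0.30 (limma adjusted p = 0.441), or -0.15 ± 0.21 without wild-type replicate 3, and -0.88 after quantile normalization. The other 3 probe sets of Csf1 differed by -0.19, 0.00 and 0.14 (-0.11, -0.08 and 0.10 without wild-type replicate 3), so the lower value was not shared by all of them.

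Counted over the 10 genes, the groups did not overlap for 3 higher genes, Ifng, Il12a and Ltb, where 9.45% of all genes were higher without overlap. They did not overlap for 2 lower genes, Lta and Csf1, against 16.8% of all genes. Without wild-type replicate 3 the counts were again 3 and 2, against 11.8% and 19.0%. At an unadjusted p under 0.05 in limma 1 of the 10, Ifng, was then higher (5.19% of all genes) and 0 lower (8.84%). The change was above 0 for 7 of the 10 with all arrays and for 7 without wild-type replicate 3, against 48.0% and 43.2% of all genes. The median change was 0.60 for the 10 genes and -0.03 for all genes, and 0.21 and -0.05 without wild-type replicate 3. Split by Xist, the 10 genes had median changes of -0.01 within the low and 0.95 within the high arrays. For all genes these were -0.04 and -0.12. On the low side 5 of the 10 were higher, so the positive median was not found on both sides. HDAC7-deficient replicate 1 alone stands for its group on the low side, and wild-type replicate 3 on the high side. With only 10 genes these counts are descriptions. HDAC7-deficient replicates 2 and 3 were both above the other 4 arrays for 3 of the 10, Ifng, Tnf and Ltb, a pattern counted after the values were seen, against 9.04% of all genes.

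**Figure D3:**
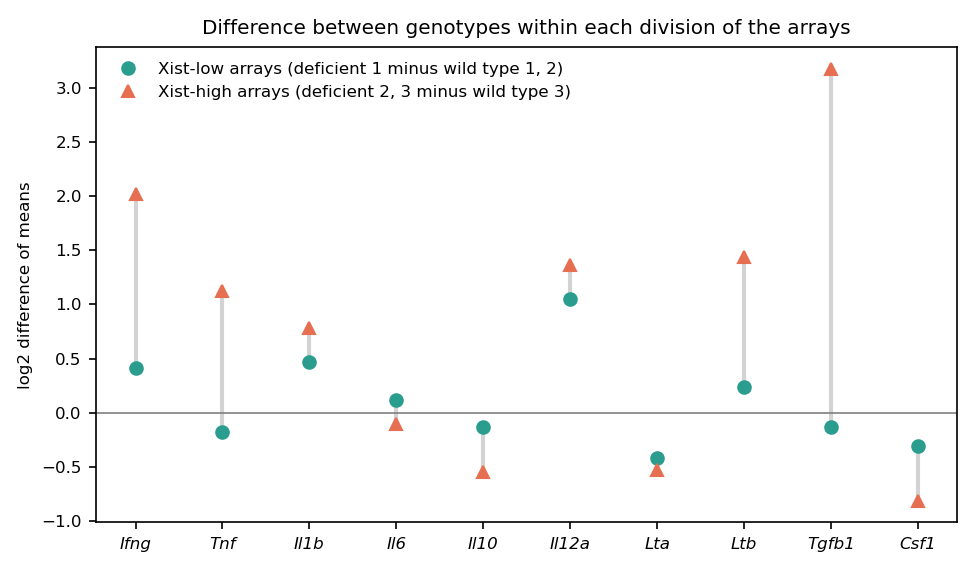
Difference in mean log2 expression between HDAC7-deficient and wild-type arrays (vertical axis) for each cytokine gene, within the 3 Xist-low arrays (circles) and the 3 Xist-high arrays (triangles). Ifng differs by 0.42 and 2.02, Tnf by -0.18 and 1.12 and Tgfb1 by -0.13 and 3.18, while Il12a and Lta have like values on both sides.

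Genes around these cytokines were followed through 6 lists. Of 12 measured feedback inhibitors of NF-kB, STAT and MAP kinase signalling and mRNA decay factors, all 12 had a change above 0, as 48.0% of all genes did. Their median change was 0.74 (0.35 without wild-type replicate 3). The array means of this list were 7.20 to 8.49, against 6.57 to 6.75 for all genes. With the dimmest 50% of genes left out, the median change of all those kept was 0.42, so shares of all genes are not matched for level. The groups did not overlap for 7 of the 12, against 9.45% of all genes, and for 9 without wild-type replicate 3, against 11.8%. Tnfaip3, which encodes the NF-kB inhibitor A20, read 8.26, 8.49 and 7.79 in wild type and 8.91, 10.05 and 10.22 on the HDAC7-deficient arrays. Like Ifng and Tnf it was highest on replicates 2 and 3, and its change was 1.54 ± 0.44 (limma adjusted p = 0.377). Nfkbia, which encodes the inhibitor IkB alpha, differed by 1.36 ± 0.46, and Zc3h12a, whose product Regnase-1 cleaves cytokine mRNAs, by 1.20 ± 0.33. Without wild-type replicate 3 these 3 changes were 1.35, 0.92 and 0.99, and none passed (limma adjusted p from 0.204 to 0.255). Zc3h12a was below the brightest nonspecific control probe set on the 3 Xist-low arrays. Dusp1, a phosphatase gene named after its values were seen, read 6.85, 7.42 and 10.01 in wild type and 8.63, 10.46 and 10.58 in the other group. It was high on wild-type replicate 3 as well, and its change of 1.79 was 2.75 without that array (limma adjusted p = 0.380 and 0.150). HDAC7-deficient replicates 2 and 3 were both above the other 4 arrays for 8 of these 12 genes, 7 of 13 transcription factors, 7 of 14 target genes, 3 of 11 partner and processing genes, 2 of 18 receptors and 0 of 12 other TNF superfamily ligands, against 9.04% of all genes. The median change of the feedback list was 0.40 within the Xist-low and 1.37 within the Xist-high arrays, against -0.04 and -0.12 for all genes. HDAC7 deficiency is represented by replicate 1 alone on the Xist-low side, and wild type by replicate 3 alone on the Xist-high side. On wild-type replicate 3, 7 of the 12 genes were lowest, against 37.8% of all genes.

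Of 13 transcription factors that act on cytokine genes 12 were higher, with a median of 0.80, or 0.34 without wild-type replicate 3, and 0.24 and 1.70 within the Xist-low and Xist-high arrays. Rel, the NF-kB subunit c-Rel, read 5.84, 6.83 and 5.49 in wild type and 7.18, 7.74 and 8.05 on the HDAC7-deficient arrays. All its HDAC7-deficient values were higher than all wild-type ones, and its change was 1.60 ± 0.41, or 1.32 without wild-type replicate 3. Cebpb, a myeloid factor that acts on Il6 and other cytokine genes, differed by 0.83 ± 0.28 and Relb by 0.62 ± 0.28 (0.74 and 0.41 without wild-type replicate 3). Of 14 measured target genes of cytokine signalling 10 were higher (median 0.45, or 0.36 without wild-type replicate 3), with medians of 0.04 and 0.63 within the Xist-low and Xist-high arrays. Smad7 and Tgif1, both of the TGF-beta pathway, differed by 0.83 ± 0.22 and 0.92 ± 0.32, and Birc3, an NF-kB target, by 0.82 ± 0.35. Without wild-type replicate 3 these 3 differed by 0.74, 0.73 and 0.51. Relb and Smad7 were below the brightest nonspecific control probe set on the 3 Xist-low arrays. No gene of these 2 lists passed in limma with all arrays or without wild-type replicate 3.

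Of 18 receptor genes of the 10 cytokines 14 were higher (median 0.71, or 0.26 without wild-type replicate 3, and 0.28 and 1.18 within the Xist-low and Xist-high arrays), and 0 passed in limma. Il1r2, the decoy receptor that takes up interleukin 1 without signalling, read 5.22, 5.86 and 4.93 in wild type and 6.22, 6.81 and 6.85 on the HDAC7-deficient arrays, a change of 1.29 ± 0.31. All 3 HDAC7-deficient values exceeded all wild-type values. Il10ra, the ligand-binding interleukin 10 receptor chain, differed by 1.11 ± 0.38 and Il12rb2, the signalling chain of the interleukin 12 receptor, by 0.84 ± 0.31. Without wild-type replicate 3 these 3 changes were 1.09, 0.76 and 0.86. On the 3 Xist-low arrays Il1r2 and Il12rb2 were below the brightest nonspecific control probe set, so their changes are against values near background.

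Partner subunits, processing enzymes and antagonists differed less. Of 11 measured 7 were higher, with a median of 0.23, or 0.12 without wild-type replicate 3. Il1rn, the interleukin 1 receptor antagonist, differed by 0.68 ± 0.26 and Furin, a protease that cleaves the TGF-beta 1 precursor, by 0.86 ± 0.34 (0.70 and 0.52 without wild-type replicate 3). Il12b, which encodes the p40 partner of Il12a, differed by -0.36 ± 0.20 (-0.22 without that array) and so did not follow Il12a in direction. It read 5.15 to 5.87, below the brightest nonspecific control probe set on every array but wild-type replicate 3, so this is a difference near background. Of 12 other ligands of the TNF superfamily 5 were higher and 7 lower, with a median of -0.16, close to that of all genes, and the groups did not overlap for 3 of them, all lower, against 16.8% of all genes (3 and 19.0% without wild-type replicate 3). Tnfsf8, the ligand of CD30, differed by -0.44 ± 0.19, Tnfsf11, the osteoclast factor RANKL, by -0.44 ± 0.21 and Eda by -0.54 ± 0.27. Without wild-type replicate 3 these 3 differed by -0.30, -0.24 and -0.31. Tnfsf8 read 4.64 to 5.50 and Tnfsf11 4.32 to 5.35. Like Il12b, both were below the brightest nonspecific control probe set on every array but wild-type replicate 3. None of the genes in these 2 lists passed in limma.

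**Figure D4:**
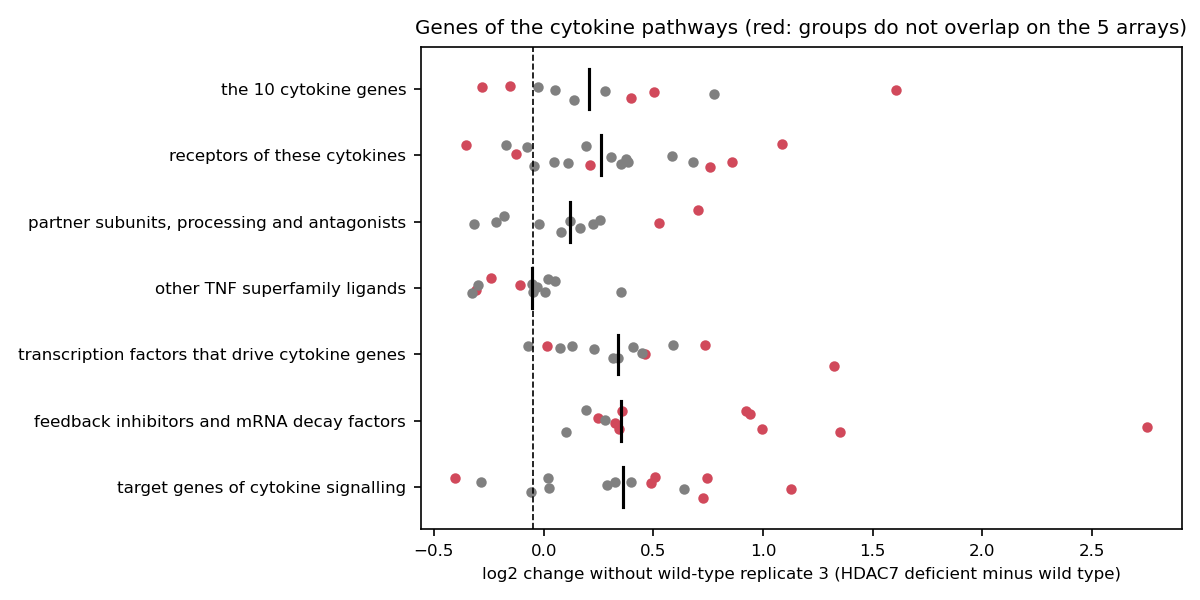
Log2 change without wild-type replicate 3 (horizontal axis) of every measured gene in the cytokine list and the 6 lists around it, with list medians as black bars and the median of all genes, -0.05, as a dashed line. Medians run from -0.05 for the other TNF superfamily ligands to 0.36 for the target genes, and red points are genes whose 2 groups do not overlap on the 5 arrays.

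Markers of the labelled cell type were present, and so were those of cells known to make these cytokines. Among 12 measured early B lineage markers, Vpreb1, a surrogate light chain gene, read 9.97 to 11.53 and Ptprc, which encodes CD45 and its B220 form, 10.45 to 10.86; the mean of the list was 8.42 to 9.94 in wild type and 9.36 to 10.18 on the HDAC7-deficient arrays. All 11 natural killer and innate lymphoid markers were measured, with a mean of 7.14 to 8.80 in wild type and 8.56 to 8.98 in the other group, and Nkg7 reached 10.58 in both. The mean of 10 of 12 T cell markers was 6.57 to 7.54 and 7.35 to 7.70, that of 11 of 12 macrophage and monocyte markers 6.75 to 6.87 and 6.97 to 7.34, and that of 11 of 12 neutrophil markers 8.74 to 10.42 and 10.27 to 10.73. The neutrophil precursor enzyme gene Mpo read 11.58 to 11.98 on all arrays but wild-type replicate 3.

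On HDAC7-deficient replicates 2 and 3, where Ifng and Tnf were highest, some of these markers were also highest. The mean of 9 of 11 plasmacytoid dendritic cell markers was 10.33 and 10.16 there, against 9.62 on replicate 1 (wild-type replicates 1 and 2 were at 9.29 and 9.72). Siglech and Bst2 of that list were not measured. Of the 9 markers 8 were highest on these arrays, a pattern counted after the values were seen and shared by 9.04% of all genes. The means of macrophage markers were 7.34 and 7.14 against 6.97, 6.84 and 6.87, and those of neutrophil markers 10.73 and 10.71 against 10.27, 10.42 and 10.24, but only 3 of 11 macrophage and 4 of 11 neutrophil markers were highest on these arrays. Natural killer markers were at 8.98 and 8.56 against 8.67, 8.41 and 8.80, and so did not separate these arrays, and T cell markers were at 7.70 and 7.39 against 7.35, 7.09 and 7.54. Of the 10 T cell markers 3 were highest on these arrays. The brightest, Cd4, read 10.11 and 9.97 there and Cd8a 10.07 and 9.77. Lat alone, which is not among the 2 brightest, was lower on both than on all the rest, at 7.18 and 7.02. Early B lineage markers read 9.42 and 9.36 on these arrays, below HDAC7-deficient replicate 1 (10.18) and wild-type replicates 1 and 2 (9.70 and 9.94). Wild-type replicate 3, left out of these means, was lower still at 8.42. Of these 12 markers 10 had a change above 0 with all arrays, against 48.0% of all genes. Without wild-type replicate 3 the count was 3, against 43.2%. The means of 9 conventional dendritic cell markers, 9 basophil and mast cell markers and 10 stromal and endothelial markers were 7.60 and 7.64, 6.83 and 6.51, and 6.49 and 6.55 on these arrays, and none of the 3 was above wild-type replicates 1 and 2 on both of them. The part of these cells in the levels of Ifng and Tnf was not tested.

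**Figure D5:**
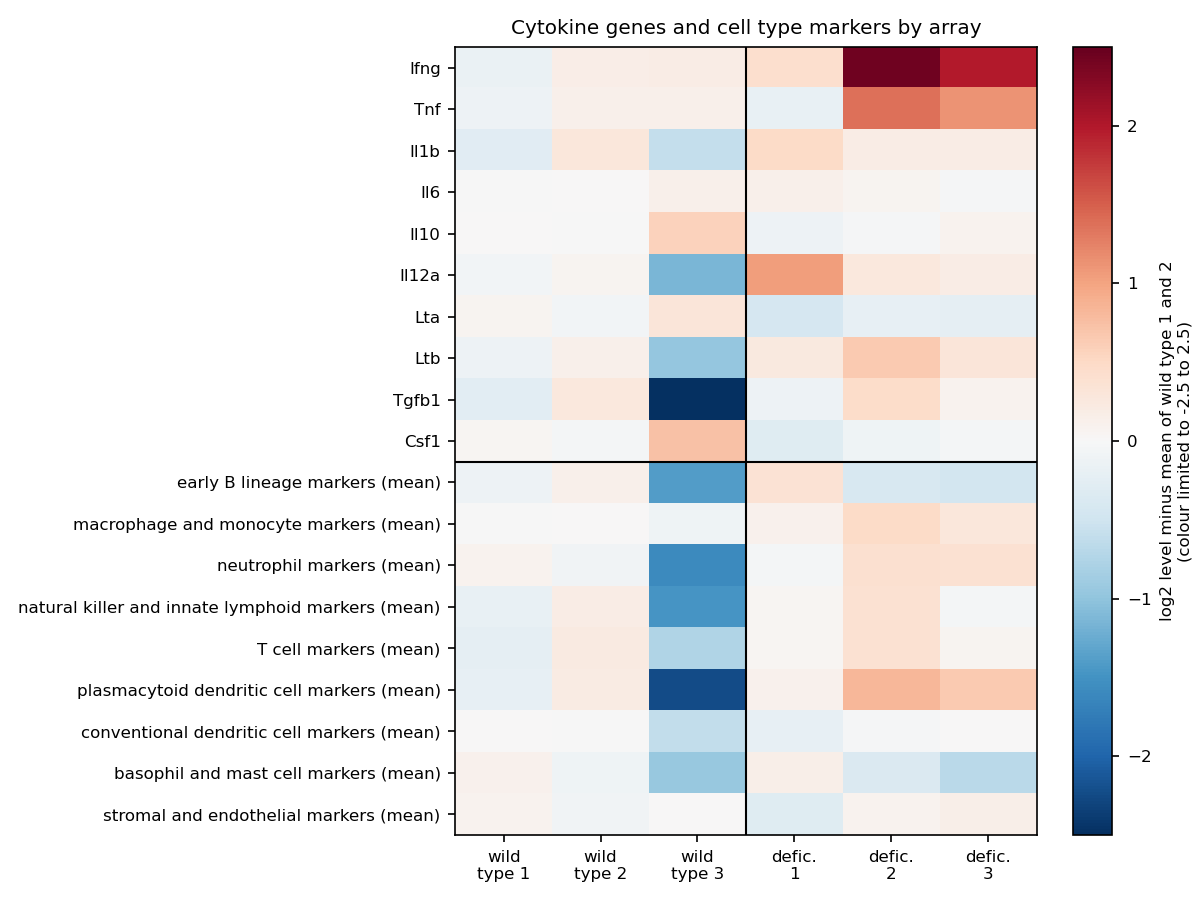
Log2 level on each array (columns) minus the mean of wild-type replicates 1 and 2, for the 10 cytokine genes (above the line) and the mean of 9 marker lists (below it). Ifng and Tnf stand out on HDAC7-deficient replicates 2 and 3, where the mean of plasmacytoid dendritic cell markers is highest and that of early B lineage markers is below wild-type replicates 1 and 2, and wild-type replicate 3 differs in most rows.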

How the data were processed

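Per the labels' protocols, RNA of 6 sorted pro-B samples, 3 in each group, went through whole transcriptome amplification before hybridisation. Values deposited by the authors are log2 levels, a scale inferred from their span; how they were summarized and normalized is not stated in those sources. Of 45141 probe sets 104 controls were set aside. The 28898 probe sets with 1 gene symbol were updated through Entrez numbers to RefSeq symbols (GRCm38.p6), giving 17097 genes, each represented by its probe set of highest mean. limma 3.58.1 (R 4.3.3) tested the 2 groups (intensity trend, no filter, two-sided, Benjamini-Hochberg over all genes or all probe sets). The fit was checked on simulated data with equal noise on every array, which does not cover an array like wild-type replicate 3. The smallest p an exact permutation of 3 against 3 allows is 0.1. The labels call the samples biological triplicates without saying whether each is a mouse or a pool. The p-values therefore set each group difference against the spread between these samples, and the number of arrays limits the precision. The genes and lists were chosen with earlier results of these data known. All 10 cytokine genes are named; of the lists around them, the 3 genes of smallest p, and of each marker list up to 2 of the brightest. Promoters are RefSeq's. Figures were drawn with matplotlib 3.10.9. Alternatives were leaving out each array, a replicate block, other normalizations, filters, probe set choices and variance models, array weights and the Xist division as a block.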

Additional observations from a re-analysis of the deposited data

How the results depend on the processing

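No cytokine gene passed an adjusted p of 0.05 in limma with any array left out, with other normalizations, filters, probe set choices or variance models, or with a block, and no single array left out gave a call over all genes. The replicate number as a replicate block gave 1 call, Hspa1b, and 0 among the 10 cytokine genes; same-numbered arrays deviated from their group means with correlations of 0.10, 0.21 and 0.48, not all clearly above 0.1, so the numbers were not taken to pair the arrays. The Xist division as a block without wild-type replicate 3 gave 4 calls, none a cytokine gene, and there Tnf (-0.18) and Tgfb1 (-0.13) changed direction; that fit compares HDAC7-deficient replicate 1 with 2 wild-type arrays. Leaving out single arrays took Il6 from -0.0216 to 0.0535, across 0. Ifng ran from 1.14 to 2.14, Tnf from 0.43 (without HDAC7-deficient replicate 2) to 1.21 (without replicate 1), Il12a from 0.50 to 1.11 and Tgfb1 from 0.14 to 1.72. Quantile normalization kept every direction but took Csf1 from -0.40 to -0.88, Lta from -0.39 to -0.14, Il12a from 0.88 to 0.51, Il1b from 0.48 to 0.28 and Il10 from -0.22 to -0.07. The default array weights did not converge. Weights by the gene-by-gene method, added after seeing the data, put 8.68 on wild-type replicate 1 and 0.07 on wild-type replicate 3 and called 8449 of 17097 genes, 6 of the 10 among them. Filters on dim genes left 7 or 5 of the 10. With the dimmest 25% left out, the median change was 0.18 for all genes kept and 0.73 for the 7. With the dimmest 50% left out it was 0.42 and, for the 5, 0.88. With all 6 arrays, brighter genes thus read higher in the HDAC7-deficient group, so the median of all genes is not a baseline matched for level. The interquartile range of values was 1.72 on wild-type replicate 3, against 2.27 to 2.93 on the rest. These filters were not run without that array, so its part in the higher medians was not tested. Centring on array medians moved the median of all genes from -0.03 to 0.10.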
